A study of Gallus gallus with 3 samples.

Results

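gga-miR-103 and gga-miR-107 are a pair of chicken microRNAs (miRNAs, short RNAs that guide repression of messenger RNAs) whose mature sequences differ by 1 base, and they are 2 of the 542 miRNAs on the array. The rule that picks them out uses the names of their probes and no measured value. Their levels were measured in leg muscle of 7-week-old recessive White Rock chickens of a dwarf and a normal strain. Both strains had been kept on the same feeding conditions. Dwarf chickens carry a deletion that removes the end of the last coding exon and part of the 3′ untranslated region from the gene of the growth hormone receptor (GHR), and normal chickens do not. There were 3 pools of RNA for each strain with 3 chickens in each pool, and each of 3 two-colour arrays was hybridized with 1 dwarf pool and 1 normal pool. On arrays 1 and 3 the dwarf pool carried Cy5 and the normal pool Cy3, and on array 2 the dyes were exchanged. Because chickens were pooled, the spread between arrays is a spread between pools and not between single birds. By the study's methods, the leg muscle sampled at this age was the central part of the gastrocnemius. In such a piece of muscle, a change in the mix of cell types and a change in level within one cell type cannot be told apart.

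miR-103 and miR-107 are encoded within genes for pantothenate kinases, the enzymes that begin the synthesis of coenzyme A. In the chicken annotation (bGalGal1.mat.broiler.GRCg7b), MIR103A1 lies inside PANK3, MIR103A2 inside PANK2 and MIR107 inside PANK1. The array had 1 probe for miR-103, which cannot tell transcripts of MIR103A1 and MIR103A2 apart. In mice, raised miR-103 and miR-107 are known to lower insulin sensitivity in liver and fat, with the messenger RNA of caveolin-1 as a direct target. Like other miRNAs, the pair selects targets mainly through the seed, bases 2 to 8 from the 5′ end.

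The mature sequences that the array was designed against are shown first with the seed in capitals, because the seed decides which messenger RNAs can be bound.
gga-miR-103: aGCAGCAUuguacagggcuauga
gga-miR-107: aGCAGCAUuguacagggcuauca
The seeds are the same. Both miRNAs have 23 bases, of which 11 are G or C (47.8%). They are shown again with the differing base in capitals, because this base is all that the probes had to separate them.
gga-miR-103: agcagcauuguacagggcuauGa
gga-miR-107: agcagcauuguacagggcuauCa
Counted from the 5′ end the substitution is G22C, with the base of miR-103 first, so the difference lies at base 2 from the 3′ end and outside the seed.

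Each miRNA had 6 spots on every array, which gave 72 spot readings for the pair. The deposited value of a spot is its mean fluorescence intensity, on a linear scale with the background still in it, and the background was estimated as a smooth surface over each array and dye. All 72 readings lay above this background, and all 72 also lay above the brightest empty spot of the same array and dye after its background was subtracted. In Cy3 on array 1 the estimated background lay above every empty spot, the brightest of which stood at -6.50 after subtraction. The margin differed between combinations of dye and array. In Cy3 on arrays 1 and 3, the mean intensity of the miR-103 or miR-107 spots was only 1.41 to 1.56 times the mean background beneath them. In the other dye and array combinations it was 2.95 to 6.03 times that background. The low combinations, Cy3 on arrays 1 and 3, both held normal pools.

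For miR-103, the 6 spots of the dwarf pool on array 1 read 151 at the lowest, 179 at the median and 190 at the highest over a background of 51.4. The spots of the normal pool on that array read 1242, 1305 and 1324 over a background of 833. The large difference between these raw readings follows the dye, since the order turned on array 2, where the dyes were exchanged. There the dwarf pool read 1214, 1347 and 1426 over 306, and the normal pool read 211, 279.6 and 314 over 44.1. On array 3 the dwarf pool in Cy5 read 267, 284 and 320 over 53.9, and the normal pool in Cy3 read 1029, 1087 and 1149 over 699. Raw readings in the 2 dyes were therefore not compared with each other before normalization.

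The miR-107 spots had the same order in every dye and were dimmer. On array 1 the lowest, median and highest readings were 142, 153 and 162 in the dwarf pool and 1145, 1175 and 1228 in the normal pool. On array 2 they were 1006, 1097 and 1234 in the dwarf pool and 153, 207 and 238 in the normal pool. On array 3 they were 221, 236 and 253 in the dwarf pool and 953, 1003 and 1036 in the normal pool. The median reading of miR-107 was below that of miR-103 in all 6 pools. After the background was subtracted, the coefficient of variation among the 6 spots of one miRNA in one pool ranged from 6.34% to 19.0%, and the largest was that of miR-107 in the normal pool of array 2.

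**Figure D1:**
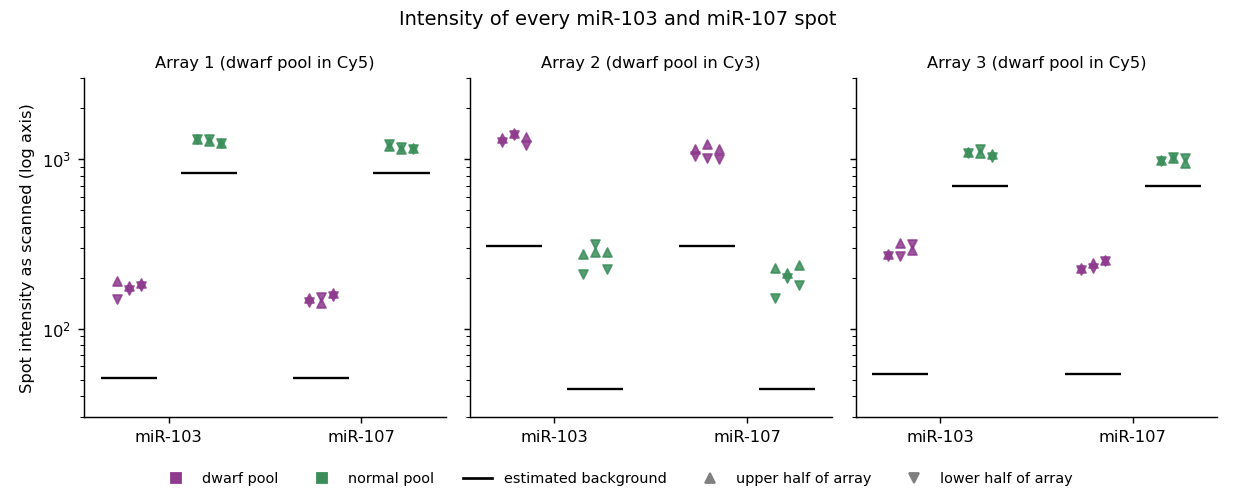
Intensity of every miR-103 and miR-107 spot as scanned (log axis), by array, with dwarf pools in purple, normal pools in green, and the estimated background as a black bar. Triangles show whether a spot lies in the upper or lower part of the array. The Cy3 spots of arrays 1 and 3 sit closest to their background, at 1.41 to 1.56 times its level in the mean.

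Signals were then obtained by subtracting the background, taking the intensity-dependent dye difference out of each array, and bringing the 3 arrays to one median. For miR-103 the signals of the dwarf pools were 447, 394 and 306 on arrays 1, 2 and 3, and those of the normal pools were 373, 231 and 257. The dwarf pool was the higher one on every array, but the groups overlapped, because the dwarf pool of array 3 lay below the normal pool of array 1. The means were 383 ± 71.4 in dwarf and 287 ± 75.5 in normal chickens (SD, n = 3), which is 1.33-fold. An exact two-sided permutation test of 3 pools against 3 gave p = 0.2, and the smallest p it can give is 0.1. This test ignores dye and the pairing of pools by array. The signal folds within arrays were 1.20, 1.70 and 1.19. With the median of the empty spots as the background, the signal fold of array 1 turned, with the dwarf pool at 0.879-fold, and the other folds were 1.63 and 1.02. The log2 ratio of array 1, calculated in another way from the same spots as described below, did not turn with this background and stood at 0.14.

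For miR-107 the signals of the dwarf pools were 364, 304 and 244, and those of the normal pools were 278, 166 and 192. Again the dwarf pool was the higher one on every array and the groups overlapped. The means were 304 ± 59.9 in dwarf and 212 ± 58.5 in normal chickens (SD, n = 3), which is 1.44-fold, and the same exact permutation test gave p = 0.2. The folds within arrays were 1.31, 1.83 and 1.27. With the empty spots as the background they were 0.879, 1.76 and 1.04, so that the direction of the signal turned on array 1 here too. The log2 ratio of array 1 again stayed above 0 with that background, at 0.20. The median signal fold over the 85 miRNAs that were tested was 1.14, so part of each fold was shared by the typical miRNA on the arrays.

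**Figure D2:**
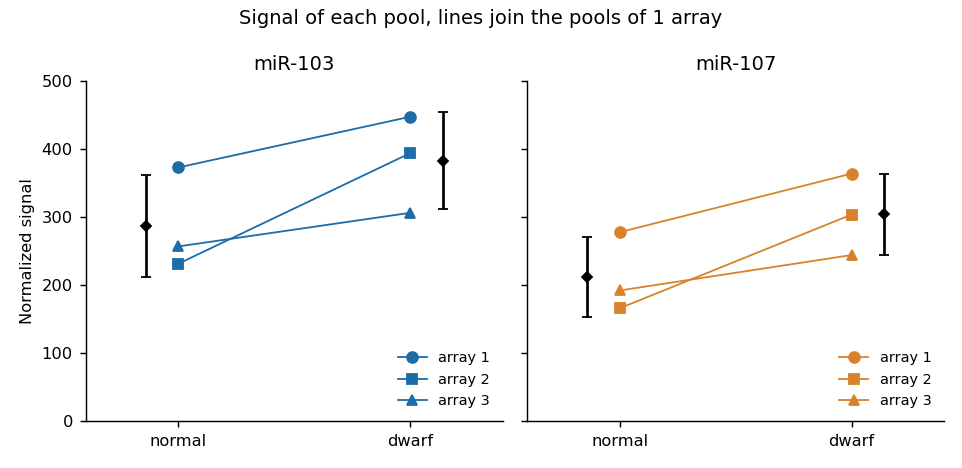
Normalized signal of miR-103 and miR-107 in each of the 6 pools, with the background taken from the smooth surface, with dwarf and normal pools of one array joined by a line and the mean ± SD of the 3 pools of a strain beside them. Every line runs higher at the dwarf end, and the 2 groups of pools overlap for both miRNAs. With the empty spots as the background the line of array 1 turns, but its log2 ratio does not.

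The comparison between strains was tested on log2 ratios of dwarf over normal within arrays, which remove whatever the pools of one array share. These ratios share their spots, background estimate and dye correction with the signals, but have an offset of 50 in the background correction. They were smaller than the log2 of the signal folds, which was 0.41 for miR-103 and 0.52 for miR-107. With plain subtraction in place of the offset the mean ratios were 0.32 and 0.43. For miR-103 the ratios with the offset were 0.12, 0.57 and 0.036 on arrays 1, 2 and 3. Their mean was 0.24 ± 0.19 (limma SE, n = 3), with a 95% confidence interval from -0.21 to 0.70. The limma SE and interval are moderated, which means that the variance of each miRNA is drawn towards a value common to all tested miRNAs. The mean is a fold of 1.19, and the interval runs from 0.866-fold to 1.62-fold. In the limma fit the adjusted p was 0.846 and the unadjusted p was 0.239. For miR-107 the ratios were 0.19, 0.60 and 0.080, with a mean of 0.29 ± 0.19 (limma SE, n = 3) and an interval from -0.16 to 0.73. The mean is a fold of 1.22, the interval runs from 0.897-fold to 1.66-fold, and limma gave an adjusted p of 0.825 and an unadjusted p of 0.168. Neither miRNA passed the test, and neither interval shows that the strains had the same level.

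These results stand against a background in which limma called 0 of the 85 tested miRNAs (0%) at an adjusted p under 0.05 and 4 of them (4.71%) at an unadjusted p under 0.05. Neither miR-103 nor miR-107 was among the 4. Both were above 0 on all 3 arrays, as were 18 of the 85 tested miRNAs (21.2%). For each of them the exact sign-flip permutation test over the arrays gave p = 0.25, the smallest it can give. Of the 85, 18 had a higher mean log2 ratio than miR-103 and 10 a higher one than miR-107, and the median over all of them was 0.048. Because all 85 passed the signal limit in dwarf chickens and 74 in normal chickens, these shares can lean towards ratios above 0.

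For both miRNAs the value of array 2 carried most of the mean. Without array 2, the mean log2 ratio of miR-103 was 0.080 and that of miR-107 was 0.13. Array 2 was also the only array with the dwarf pool in Cy3, so a difference between its pools and a difference between dyes cannot be told apart. The spread between arrays was no wider than usual. The SD of the 3 ratios was 0.29 for miR-103 and 0.27 for miR-107, against a median of 0.28 over the tested miRNAs.

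The spots within an array showed how far the array values are determined. The 6 spot-level log2 ratios of miR-103 ran from -0.057 to 0.26 on array 1, from 0.41 to 0.76 on array 2 and from -0.16 to 0.33 on array 3. Those of miR-107 ran from 0.084 to 0.32, from 0.47 to 0.81 and from -0.016 to 0.26. For each miRNA the range of array 2 did not overlap with that of either other array, while the ranges of arrays 1 and 3 overlapped. Of the 18 spots of each miRNA on the 3 arrays, 14 were above 0 for miR-103 and 17 for miR-107. Spots of one array share the same pools, and so they are not replicates of the strains.

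The authors' own log2 ratios, which were deposited as 1 value per miRNA and array, gave another order of arrays. They were 0.27, 0.29 and -0.36 for miR-103 and 0.40, 0.43 and -0.30 for miR-107. In these ratios array 3 lay below 0 for both miRNAs and array 2 did not stand apart from array 1. How the spots were combined in them is not stated in the sources used here. Over the 85 tested miRNAs, each array's deposited ratios and those calculated from the scanned intensities had a correlation of 0.83, 0.88 and 0.89, which is a correlation across miRNAs that share arrays and not across samples. In the plot of every setting, the estimate of both miRNAs is above 0 throughout, but the value of array 3 is not.

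**Figure D3:**
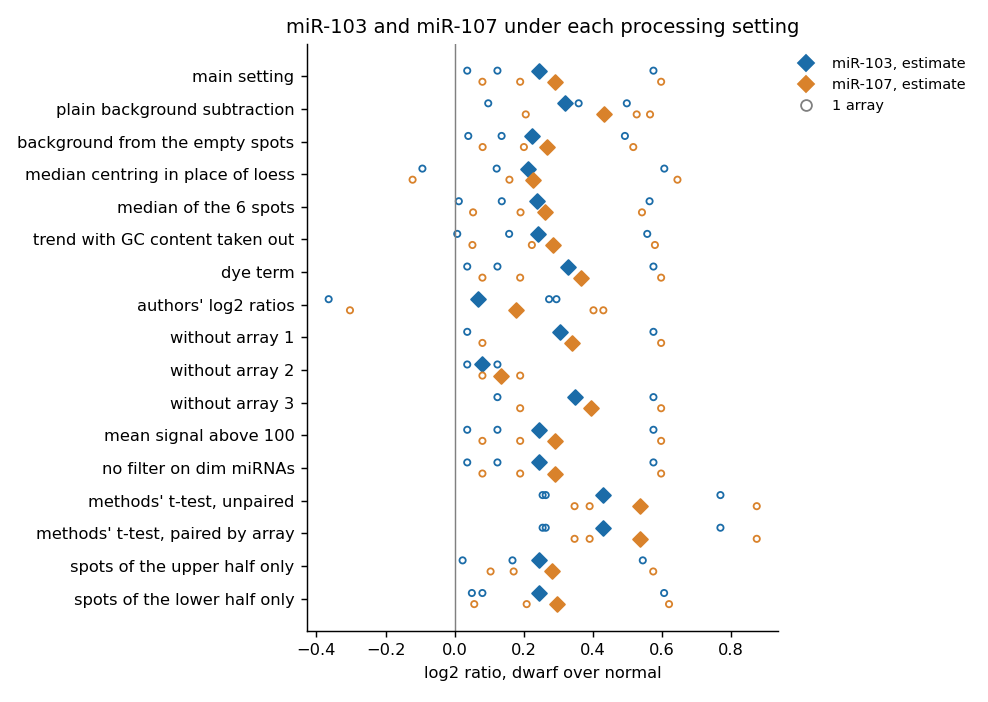
Log2 ratio of dwarf over normal for miR-103 (blue) and miR-107 (orange) under each processing setting, with filled diamonds for the estimate and open circles for single arrays. The estimates run from 0.068 to 0.43 for miR-103 and from 0.13 to 0.54 for miR-107, all above 0. Settings that change only the limit on dim miRNAs repeat the main estimate. Array 3 lies below 0 with median centring and in the authors' ratios.

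How far the probes gave separate readings can be described in 2 ways: by how closely they moved together and by how other probe pairs of the array behaved. The brightness of different probes does not rank the abundance of their targets, and the percentages below are used only to follow one pair from pool to pool. The signal of miR-107 was 81.3%, 77.1% and 79.7% of that of miR-103 in the dwarf pools, taken in array order, and 74.5%, 71.7% and 74.8% in the normal ones. Over the 6 pools this percentage was 76.5 ± 3.59 (SD, n = 6), a coefficient of variation of 4.69%. The signals themselves had coefficients of variation of 25.1% for miR-103 and 28.4% for miR-107 over the same 6 pools. The readings of the pair thus rose and fell together much more than they moved apart. Signals of miR-106 and miR-17-5p, which belong to the same family, also rose and fell together. Their sequences were not compared, so they cannot show whether unlike probes move together as well. In the dwarf pools, in array order, miR-106 had signals of 1195, 868 and 939 and miR-17-5p of 1500, 1126 and 1159. In the normal pools they were 1041, 566 and 756 against 1384, 773 and 956. The mean percentage of miR-107 to miR-103 was 77.6 in the 3 Cy5 pools and 75.4 in the 3 Cy3 pools.

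The percentage was higher in every dwarf pool than in any normal pool, with means of 79.4 ± 2.14 and 73.6 ± 1.71 (SD, n = 3 each). The exact two-sided permutation test of 3 pools against 3 gave p = 0.1, the smallest it can give. It ignores dye and the pairing of pools by array, and the comparison was chosen after the data were seen. This separation depended on the background estimate. With the median of the empty spots as the background, the dwarf pools stood at 81.5%, 77.5% and 79.6% and the normal pools at 81.4%, 71.6% and 78.2%, so that they overlapped, with an exact permutation p = 0.6. Without loess and scaling the pools stayed apart by a narrow margin. The dwarf pools then stood at 80.5%, 77.5% and 77.7% and the normal pools at 75.2%, 71.3% and 76.6%. The means were 78.6% in dwarf and 74.4% in normal chickens, with an exact permutation p = 0.1. When each miR-107 spot was set against the miR-103 spot nearest to it, 2 rows away, the 6 percentages in a pool had an SD between 4.76 and 11.1 and an SE between 1.94 and 4.54.

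**Figure D4:**
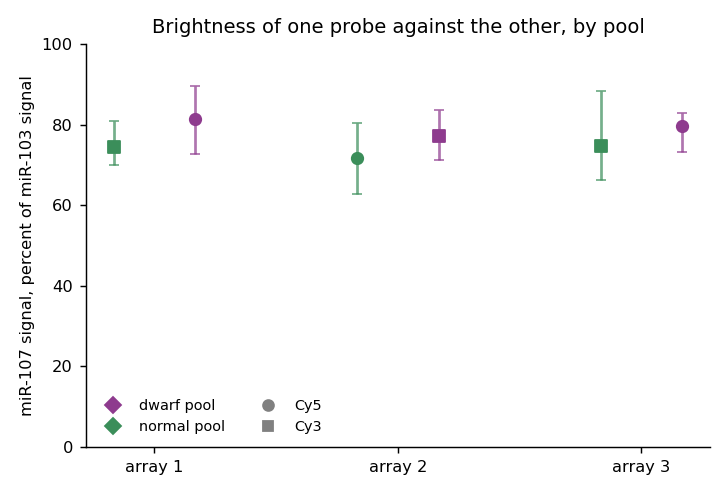
Signal of miR-107 as a percent of that of miR-103 in each pool. Points are the ratio of the mean signals of the 6 spots, and bars show the mean ± SD of the 6 spot pairs, which is centred on a slightly different value. The dwarf pools sit at 77.1 to 81.3 and the normal pools at 71.7 to 74.8.

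The same small difference appeared in the log2 ratios, which were made from the same spots and are not separate evidence. The ratio of miR-107 was above that of miR-103 by 0.066, 0.022 and 0.044 on the 3 arrays, with a mean of 0.044 and an SD of 0.022. The exact sign-flip permutation test gave p = 0.25, the smallest possible with 3 arrays. In pairs of neighbouring spots the miR-107 ratio was the higher in 5, 3 and 4 of 6 on arrays 1, 2 and 3.

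Other pairs of miRNAs on the array with 1 mismatch, aligned at the 5′ end and with lengths that differed by at most 1 base, gave a scale for this likeness. There were 20 such pairs, of which 13 had a brighter member with a signal above 32 in every pool. The authors used 32 as their standard for detection, but on their own signals, so the limit need not be equivalent here. A further pair, miR-29c and miR-29a, had 0 mismatches, but its brighter member was not above 32 in every pool. In 3 of the 13 (miR-133b with miR-133c, miR-133a with miR-133b, and miR-15a with miR-15c) one miRNA was also 1 base shorter at the 3′ end, and 2 of these 3 had the mismatch in the last 2 bases. The array could separate some of them. miR-1a and miR-1b, muscle miRNAs that differ near the middle, are shown with the differing base in capitals because they were the pair most fully separated.
gga-miR-1a: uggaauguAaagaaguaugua
gga-miR-1b: uggaauguUaagaaguaugua
At a mean signal of 24044 for miR-1a, the miR-1b probe stood between -0.049% and 0.053% of it over the 6 pools, which is at background. In let-7f and let-7k, which differ by U16A with let-7f first, the dimmer probe stood between 0.472% and 2.21% of the brighter. In these 2 pairs a probe with 1 mismatch, at base 13 or base 7 from the 3′ end, read little of a bright neighbour.

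No pair with the difference in the last 2 bases was separated in that way. Besides miR-103 and miR-107 there were 4 such pairs, among them miR-133a and miR-133c, again muscle miRNAs, which are shown because they differ at the last base only.
gga-miR-133c: uugguccccuucaaccagcugC
gga-miR-133a: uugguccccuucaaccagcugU
The miR-133a probe stood between 22.8% and 37.0% of miR-133c over the pools, and miR-133b between 22.8% and 39.8% of miR-133c. miR-133a stood between 86.2% and 108% of miR-133b, and miR-15b between 63.3% and 104% of miR-15c. With miR-107 at 71.7% to 81.3% of miR-103, the lowest value over these 5 pairs was 22.8%, and 0 of the 5 had a dimmer probe under 10% in all pools, against 2 of the 8 pairs with the difference elsewhere. These pairs are not separate cases, since the miR-133 pairs share their probes with each other, as do several let-7 pairs among the others. The percentage cannot say how much of a reading is cross-hybridization, because the true amounts of the miRNAs are not known. It sets a limit only. If the miR-107 probe read one constant share of the miR-103 signal in every pool, that share could not be above 71.7%, its percentage in the normal pool of array 2, within the spot error of that pool. The reverse case, the miR-103 probe reading miR-107, is not limited in this way, because the miR-103 signal was the higher in every pool. The cross-hybridization itself was not measured in either direction.

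Pairs with the difference elsewhere were not all separated either. let-7a stood at 80.3% to 109% of let-7c, let-7b at 80.8% to 112% of let-7c, and miR-100 at 64.2% to 108% of miR-99a. For all of these, as for miR-103 and miR-107, both members may truly be present. Of the 13 pairs, 12 had both members tested between strains. The root mean square difference between the 3 log2 ratios of the pair members was 0.047 for miR-103 and miR-107, the lowest of the 12, followed by 0.078 and running up to 0.48.

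**Figure D5:**
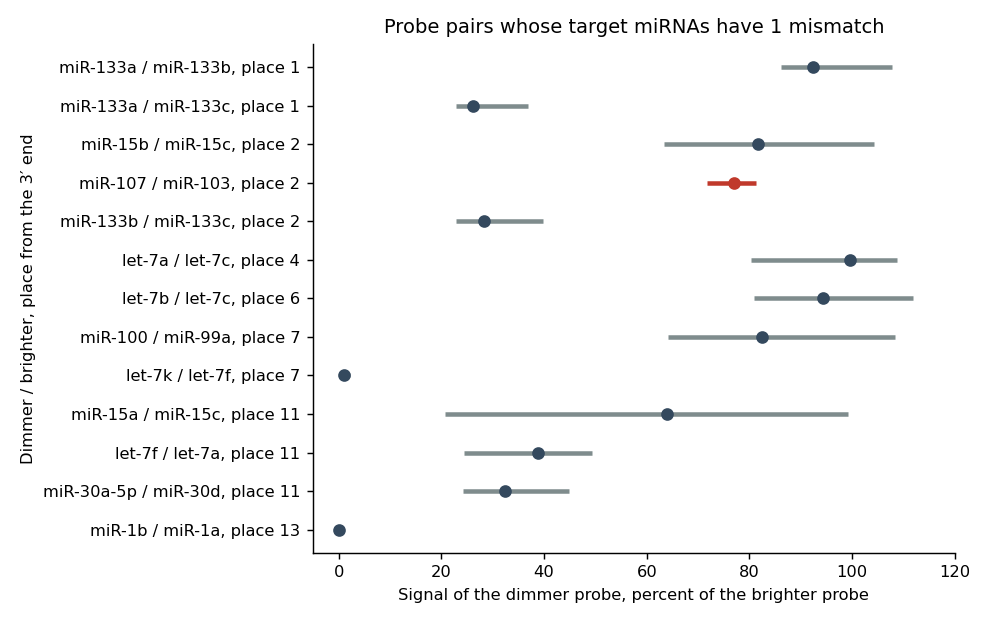
Signal of the dimmer probe as a percent of the brighter one for the 13 pairs of miRNAs that have 1 mismatch (3 of them also differ in length by 1 base) and whose brighter member was above 32 in every pool. Points are the ratio of the means over 6 pools, lines run from the lowest to the highest pool, and the place of the differing base is counted from the 3′ end. miR-107 over miR-103 is in red, with a range of 71.7 to 81.3.

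Among all tested miRNAs, too, each member was nearest to the other. The 3 log2 ratios of miR-103 were compared with those of the other 84 tested miRNAs by the root mean square difference, and miR-107 was the nearest at 0.047, against a median of 0.46. Next came miR-106, a member of the miR-17 family, at 0.083 and miR-1579 at 0.094. For miR-107 the same miRNAs followed at 0.074 and 0.084. Their ratios had the same outline, with the highest value on array 2, at 0.13, 0.55 and 0.18 for miR-106 and 0.15, 0.50 and 0.18 for miR-1579. The ratios of miR-17-5p, at 0.057, 0.49 and 0.16, lay close to those of miR-106 as well. The sequences of miR-106 and miR-17-5p were not compared, because their lengths of 22 and 24 bases differ by more than 1 base. These comparisons describe 3 arrays only.

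The wider group to which the pair belongs was defined by the motif AGCAGC within the first 8 bases, searched on the mature strand. It held 8 of the 542 miRNAs on the array, namely the pair, miR-1551 and the miR-15 and miR-16 members (miR-15a, miR-15b, miR-15c, miR-16 and miR-16c). miR-15 and miR-16 are known in mammals for targeting cell cycle and survival genes, among them BCL2. Members are shown with the seed in capitals, because the motif begins 1 base later in the miR-15 and miR-16 sequences and shifts the seed.
gga-miR-103: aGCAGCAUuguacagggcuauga
gga-miR-15b: uAGCAGCAcaucaugguuugca
gga-miR-16: uAGCAGCAcguaaauauuggug
The seeds are thus GCAGCAU in the pair and AGCAGCA in the miR-15 and miR-16 members. Aligned at the 5′ end without a shift, the latter differ from miR-103 at 15 to 18 of their 21 or 22 bases. This count also scores the shared motif, which is 1 base out of step, as different, so it overstates how unlike they are.

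In the group, 7 of the 8 miRNAs were tested, 5 had a mean log2 ratio above 0 and 2 below 0, and 0 were called by limma, with a median of 0.11 against 0.048 over all tested miRNAs. Of all 85 tested, 54 were above 0 and 31 below 0. The smallest adjusted p in the group was 0.825, that of miR-107. miR-16 had a mean log2 ratio of -0.12 ± 0.27 (limma SE, n = 3), with ratios of -0.85, 0.017 and 0.49 on the 3 arrays and an SD of 0.68 between them. miR-16 thus lay below 0 on array 1 and highest on array 3, an outline unlike that of the pair. miR-16c had a mean of -0.098, miR-15a 0.14, miR-15b 0.11 and miR-15c 0.019, all with limma SEs of 0.18 to 0.20. Without the pair, 3 of the 5 were above 0 and 2 below, with a median of 0.019. miR-1551 was at background in both strains and was not tested.

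A list of 13 miRNAs known in mammals for insulin, glucose or lipid handling was read beside the pair. Of these, 12 were on the array and 6 were tested, of which 4 had a mean log2 ratio above 0, 2 below 0, and 0 were called, with a median of 0.016. Over all 85 tested miRNAs, 54 were above 0 and 31 below 0. miR-27b, a regulator of fat cell differentiation, had a mean log2 ratio of 0.34 ± 0.19 and an adjusted p of 0.799 in limma. miR-26a stood at -0.36 ± 0.23 (adjusted p = 0.825 in limma) and miR-122, the abundant miRNA of liver, at -0.75 ± 0.39 (adjusted p = 0.774 in limma; limma SE, n = 3 for each). The log2 ratios of miR-122 were -0.15, -0.043 and -2.06 on arrays 1, 2 and 3. Its mean thus came mostly from array 3, where the signal of the dwarf pool was 3.67. The others were miR-29c at 0.019, miR-130b at 0.026 and miR-223 at 0.013. miR-29c passed the signal limit in dwarf chickens only, at 34.9 ± 59.2 against 15.6 ± 21.1 in normal chickens (SD, n = 3 each). Its sequence had 0 mismatches with that of miR-29a, which is 1 base longer, yet their mean signals over all pools were 25.3 and 1.81. miR-29a, miR-29b, miR-33, miR-34a, miR-130a and miR-375 were below the standard of 32 in both strains.

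The labelled tissue was checked against its markers. All 5 muscle miRNAs (miR-1a, miR-133a, miR-133b, miR-133c and miR-206) were tested, with summed signals of 28385 to 70215 in the dwarf pools and 41305 to 59788 in the normal pools. All 5 had a mean log2 ratio below 0, as had 31 of the 85 tested miRNAs, with a median of -0.16, and 0 were called. On array 1, however, miR-133a, miR-133b, miR-133c and miR-206 lay above 0, at 0.36, 0.43, 0.66 and 0.12. The mean signals of miR-133a, miR-133b and miR-133c were also higher in dwarf chickens, and those of miR-1a and miR-206 were lower. Because the miR-133 miRNAs differ only in their last 2 bases, their probes may not give separate readings. Of the 5 blood miRNAs only miR-451 and miR-223 were tested, with summed signals of the list of 66.4 to 172 in dwarf and 58.5 to 83.0 in normal pools, and miR-144, miR-142-3p and miR-142-5p were below 32. miR-122 of liver had a mean signal of 86.1 in dwarf and 182 in normal chickens, with dwarf signals of 85.3, 169 and 3.67 on arrays 1, 2 and 3. miR-375 of pancreas was at background. miR-126 of blood vessels had a mean log2 ratio of 0.23 ± 0.34 (limma SE, n = 3), with -0.73, 0.26 and 1.15 on arrays 1, 2 and 3. The part of these cell types in the values of miR-103 and miR-107 was not tested.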

How the data were processed

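For each spot and dye, the authors deposited a mean intensity on a linear scale with the background included, from a GenePix scanner and Array-Pro software. They also gave 1 log2 ratio for each miRNA on each array, after subtraction of background and a LOWESS filter. The direction of these deposited log2 ratios was found from the intensities, and they served only as an alternative. In R 4.3.3 with limma 3.58.1, the background was estimated by a loess surface (span 0.3) through the miRNA spots. Ratios were corrected by normexp (offset 50) and by loess within arrays (4 iterations), the 6 spots were averaged on the log2 scale, and array 2 was turned. Of the 542 miRNAs, the 85 whose signal averaged above 32 in at least 1 strain were tested against 0 (lmFit, eBayes, Benjamini-Hochberg, threshold 0.05). The number of arrays limits the precision. The steps were tested on simulated data. Named are the pair, the AGCAGC group, pairs with 1 mismatch, the nearest miRNAs, host genes, the metabolic list and tissue markers. These members and lists were chosen with earlier results of these data known. Of the RNA isolation, the study's methods name TRIzol and an RNeasy MinElute cleanup kit, whereas the sample records name another kit. The embryo and mRNA data were not analysed here.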

Additional observations from a re-analysis of the deposited data

How the results depend on the processing

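The mean log2 ratio of miR-103 was above 0 under all 16 alternatives, from 0.068 in the authors' ratios to 0.43 in the methods' t-test, with adjusted p from 0.542 to 0.992, and that of miR-107 under all 16, from 0.13 without array 2 to 0.54, with adjusted p from 0.539 to 0.992. Neither passed the threshold under any of them. Not all of these alternatives could move the estimate. Other limits on dim miRNAs changed only which miRNAs were fitted and left it at the main value. The paired and unpaired t-tests share the same estimate, and the estimates from the upper and lower spots average to the main one. With median centring in place of loess, array 3 fell below 0, at -0.094 for miR-103 and -0.12 for miR-107. The difference between the probes stayed above 0 in the mean under its 11 alternatives (0.016 to 0.11), but not on every array. Signal folds of dwarf over normal ran from 1.12 to 1.43 for miR-103 and from 1.14 to 1.53 for miR-107. They were lowest with the empty spots as background, where array 1 turned to 0.879 for both. The log2 ratios of array 1 did not turn with that background. Without loess and scaling the signal folds followed the dye. Arrays 1 and 3 then lay at 0.272 and 0.606 for miR-103 and at 0.291 and 0.614 for miR-107. The number of miRNAs called over the whole array was 0 and became 1 with median centring, 3 with the trend with GC content taken out and 1 with a mean signal above 100, and it was 0 to 3 when 1 array was left out. The number at an unadjusted p under 0.05 was 4 and became 9 with plain subtraction, 7 with the GC trend taken out and 20 with no filter on dim miRNAs, where all 542 were fitted, and it was 2 to 8 when 1 array was left out. The cause of these changes was not tested. The pools are paired by array, and the paired and unpaired forms of the methods' t-test both gave 0 calls after adjustment and 6 before. The spots of the upper part alone and the spots of the lower part alone were chosen after the data were seen. So were the comparison of strains by the percentage of miR-107 to miR-103 and its alternatives. The readings stood least above their background in Cy3 on arrays 1 and 3, at 1.41 to 1.56 times its level in the mean.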

Other observations

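On arrays 1 and 2 the lower 3 spots of the pair were dimmer than the upper 3, relative to the typical miRNA with a signal above 100. On array 1 the background-subtracted signal of the lower spots was 0.947 of that of the upper ones in Cy3 and 0.861 in Cy5 for miR-103, and 0.954 and 0.995 for miR-107, against medians of 1.07 and 1.05. On array 2 the values were 0.924 and 0.876 for miR-103 and 0.823 and 0.744 for miR-107, against a median of 0.964 in both dyes. On array 3 they were 0.944 and 0.961 for miR-103 and 1.01 and 0.963 for miR-107, against 0.993 and 0.999. The log2 ratios of array 1 were 0.17 from the upper and 0.080 from the lower spots for miR-103, and 0.17 and 0.21 for miR-107. Those of array 2 were 0.54 and 0.61 for miR-103, and 0.57 and 0.62 for miR-107.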
